A study of Mus musculus with 6 samples.

Results

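Hemoglobin is the oxygen carrier of red cells. Each molecule joins alpha and beta chains around heme, and erythroblasts make both chains in large and nearly balanced amounts late in their maturation under GATA1 and KLF1. Macrophages of the bone marrow and spleen take up worn-out red cells and erythroblast nuclei, break down their heme and export the iron. The 5 genes described here were the adult alpha chains Hba-a1 and Hba-a2, the adult beta chains Hbb-bs and Hbb-bt, and Ahsp, which codes for the chaperone of free alpha chains. They were chosen by name, and they had been picked for opposite shifts with iron in macrophages and leukemia cells, so the values of the iron comparisons below are a description. Of the 54532 genes listed in each library, 4 of the 5 were found by mapping Ensembl identifiers with GENCODE M21. Ahsp was not analysed here.

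RNA of sorted cells had been sequenced in 6 libraries, 1 per condition. All mice were C57BL/6. WT mice carried no leukemia and received PBS, and WT/FE mice carried no leukemia and received iron dextran. MA9 and MA9/FE mice had been transplanted with leukemia cells expressing GFP and the fusion oncogene MLL-AF9 from a retrovirus, and were then given PBS or iron dextran, respectively. Iron dextran was injected into the peritoneum 6 times, each time as 0.2 mL at 25 mg/mL, and the controls received the same volume of PBS. Macrophages came from all 4 kinds of mice, and leukemia cells came from the MA9 and MA9/FE mice. By the labels, macrophages were spleen cells and leukemia cells were bone marrow cells, whereas the study's methods name the bone marrow for the macrophages too. The study's methods give an age of 6 to 8 weeks for the mice it was supplied with, and the age at sorting, the number of mice behind each library and the number of clones behind the leukemia are not given in the sources used here.

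The values were FPKM (fragments scaled to exon length and sequencing depth), from which whole reads could be recovered. Depth was 16085344 to 19518348 reads per library, and 96.7% to 97.0% of the values above 0 came out whole within 0.05 of a read. Every value of the 4 chains was a whole number of reads. Intervals given below are 95% counting intervals of those reads. They cover neither the differences between mice nor those between sorts, because no condition was repeated.

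The macrophage libraries also held transcripts of other cells. The macrophage genes Csf1r (56.6 to 111 FPKM) and Adgre1, which codes for F4/80 (32.2 to 54.5 FPKM), stood beside the B cell gene Cd79a at 415 to 802 FPKM. In the leukemia cell libraries Cd79a was at 0.832 and 0.9996 FPKM, and Hoxa9, a target gene of MLL-AF9, was at 40.6 and 41.0 FPKM against 0.119 to 0.791 FPKM in the macrophage libraries. Because these are bulk samples, a lower level of a gene can come from fewer cells of one type or from less RNA per cell, and these cannot be told apart.

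The chains of each class are near-copies, so reads cannot always be given to 1 gene. The stretches below show the only base in which the 2 coding sequences of each class differed in GENCODE M21. They are shown 5′ to 3′ with the differing base in capitals.
Hba-a1: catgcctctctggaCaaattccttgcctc
Hba-a2: catgcctctctggaTaaattccttgcctc
Hbb-bs: gtggctggagtggcCgctgccctggctca
Hbb-bt: gtggctggagtggcTgctgccctggctca
Counted from the A of the start codon, the difference was C381T between Hba-a1 and Hba-a2 and C417T between Hbb-bs and Hbb-bt. Neither changed the protein. Both alpha genes therefore code for 1 protein of 142 residues and both beta genes for 1 of 147 residues, and alpha and beta proteins were 42.7% identical. The untranslated ends differ more. Of all 100-base windows along the longest coding transcript, 43.5% in Hba-a1, 25.5% in Hba-a2, 37.4% in Hbb-bs and 45.2% in Hbb-bt were found in no other globin transcript. The split between 2 copies thus rests on part of each transcript, and the sums over each class do not depend on how shared reads were split. Whether shared reads were left out was not tested, and the sums would be too low if they were.

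The genes lie in the 2 globin clusters. Hba-a1 (ENSMUSG00000069919) lies at chr11:32283511-32284465 and Hba-a2 (ENSMUSG00000069917) at chr11:32296489-32297298, both on the plus strand of GRCm38 (mm10). Hbb-bs (ENSMUSG00000052305) lies at chr7:103826534-103828096 and Hbb-bt (ENSMUSG00000073940) at chr7:103812524-103813996, both on the minus strand. Each has 3 exons. To let the 4 genes be compared at their start sites, which these data do not test, the core promoters are shown as the 30 bases from 40 to 11 before the RefSeq start (GRCm38.p6, on the strand of the gene), with TATAA and, on the opposite strand, CCAAT (read here as ATTGG) in capitals.
Hba-a1, chr11:32283632-32283661: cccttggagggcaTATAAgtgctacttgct
Hba-a2, chr11:32296452-32296481: ttggagggcaTATAAgtgctacttgctgca
Hbb-bs, chr7:103827939-103827968: agggcagagcaTATAAggtgaggtaggatc
Hbb-bt, chr7:103813934-103813963: cagcATTGGgtaTATAAagctgagcagggt
TATAA began 27 to 30 bases before the RefSeq start in all 4. Within 110 bases before the start, all 4 also held CCAAT and CACCC, the latter being the kind of letters that KLF1 recognizes. GATAA, the letters of GATA factors, was in none of these 4 windows. On either strand, 10.9% of the 32851 RefSeq promoters held TATAA in a window of this length, 20.2% CCAAT, 29.6% CACCC and 9.43% GATAA. GENCODE M21 also lists transcripts of these genes that begin upstream of the RefSeq start.

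Hba-a1, the main alpha transcript in every library, was at 32.6 FPKM in macrophages of WT mice, against 75.6 FPKM in WT/FE mice. Macrophages of mice with leukemia had 103 FPKM without iron (MA9) and 210.2 FPKM with iron (MA9/FE), and the leukemia cells had 169 FPKM without iron and 62.1 FPKM with iron. It was therefore lowest in WT macrophages and highest in MA9/FE macrophages, and no counting interval touched that of the library next in order. Hbb-bs, the main beta transcript, was in the same order of libraries at 37.1, 90.8, 83.4, 181, 189.9 and 74.3 FPKM. It was again lowest in WT macrophages, and MA9 leukemia cells and MA9/FE macrophages shared the top with overlapping intervals. The interval of MA9 macrophages also overlapped those of its neighbours, MA9/FE leukemia cells (69.8 to 79.0 FPKM) and WT/FE macrophages (85.6 to 96.1 FPKM), which did not overlap each other.

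Hba-a2, the lesser alpha transcript, was at 3.69 FPKM without and 6.43 FPKM with iron in macrophages of mice without leukemia, at 5.38 and 17.3 FPKM in those of mice with leukemia, and at 28.6 and 8.15 FPKM in leukemia cells. It rested on 48 to 346 reads, and among its lowest 4 libraries each interval overlapped that of the next in order. Those of WT (2.72 to 4.89 FPKM) and WT/FE macrophages (5.03 to 8.09 FPKM) did not overlap. Hbb-bt, the lesser beta transcript, was at 9.98, 20.9, 31.5 and 55.9 FPKM in macrophages from WT, WT/FE, MA9 then MA9/FE mice, and at 32.6 and 14.6 FPKM in leukemia cells without and with iron. It was highest in MA9/FE macrophages, and MA9 macrophages and MA9 leukemia cells overlapped.

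**Figure D1:**
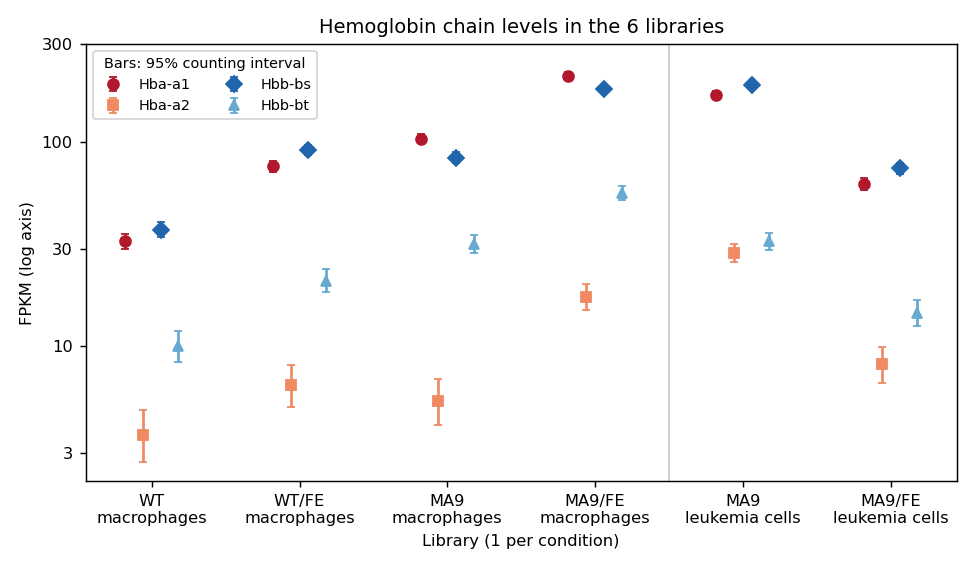
FPKM of the 4 hemoglobin chains (y axis, logarithmic) in each of the 6 libraries (x axis), with 95% counting intervals as bars. In macrophages all 4 chains stand higher in the library with iron than in its partner without iron, and in leukemia cells all 4 stand lower.

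Hemoglobin was a small part of the reads in these libraries. The 4 chains took 0.00644% of reads in WT macrophages (95% Wilson interval 0.00609 to 0.00681, 1257 reads) and 0.0150% in WT/FE macrophages (0.0144 to 0.0156). The share was 0.0174% in MA9 macrophages (0.0168 to 0.0180) and 0.0360% in MA9/FE macrophages (0.0351 to 0.0370, 5794 reads). In leukemia cells it was 0.0325% without iron (0.0317 to 0.0333, 5901 reads) and 0.0123% with iron (0.0118 to 0.0128). These shares are over the depth of each library. In MA9/FE macrophages all recovered reads summed to 17480666, above the depth of 16085344 used here. In MA9 leukemia cells the sum was 18021479 and the depth 18157056. Over recovered reads the MA9/FE macrophage share would be lower, and whether it would still exceed that of MA9 leukemia cells was not tested. The summed level was 83.3, 193.7, 223.8 and 464.0 FPKM in macrophages from WT, WT/FE, MA9 then MA9/FE mice, and 420.0 and 159.1 FPKM in leukemia cells without and with iron. By FPKM, Hbb-bs ranged from rank 1464 of the 23366 genes above 0 in WT macrophages to rank 208 of 21926 in MA9 leukemia cells.

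With iron, all 4 chains were higher in WT macrophages. Fold changes are given as log2(FPKM + 1) after TMM scaling (trimmed mean of M values) within each pair of libraries, leaving out genes under 10 reads in both libraries of the pair, and a gene counts as passing at a fold of at least 2. Such values understate the change of low genes. In WT macrophages, 2 of the 4 chains passed, Hba-a1 (log2 fold change 1.18 ± 0.15, counting half-width) and Hbb-bs (1.26 ± 0.15), while Hbb-bt (0.99 ± 0.30) lay just outside and Hba-a2 was at 0.66 ± 0.53. Hbb-bs is also among the genes the study had listed from these samples. Over all 16737 genes, 0.729% passed upward and 0.544% downward. The alpha sum went from 36.2 to 82.0 FPKM and the beta sum from 47.1 to 112 FPKM, log2 fold changes of 1.15 and 1.22.

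In MA9 macrophages iron gave shifts of like size. Hba-a1 (1.05 ± 0.09), Hbb-bs (1.14 ± 0.10) and Hba-a2 (1.56 ± 0.42) passed, and Hbb-bt (0.84 ± 0.18) did not, beside 1.19% of 16496 genes passing upward and 1.26% downward. The alpha sum went from 109 to 228 FPKM and the beta sum from 115 to 236 FPKM, log2 fold changes of 1.09 and 1.07. The median over the 4 chains was 1.10 here and 1.09 in WT macrophages, against 0.01 and -0.01 over all genes. Short genes were as a group higher in the MA9/FE library: the 302 genes with exon lengths like those of the chains had a median of 0.17. With a trend on exon length removed, which was added after the data were seen, Hba-a2 (1.39) alone passed and the others were between 0.67 and 0.97.

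In leukemia cells the direction was the opposite, and all 4 chains passed downward with iron. The log2 fold changes were -1.43 ± 0.11 for Hba-a1, -1.69 ± 0.32 for Hba-a2, -1.34 ± 0.10 for Hbb-bs and -1.11 ± 0.25 for Hbb-bt, beside 0.429% of 15396 genes passing downward and 0.435% upward. The alpha sum went from 198 to 70.2 FPKM and the beta sum from 222 to 88.8 FPKM. These values chose the genes, so nothing is read from their excess over all genes. Other genes with log2 fold changes of at least 0.5 in the same directions, given as a description, were C1qb, Ptgs1, Mrap, Siglece, 2 immunoglobulin segments and 3 predicted genes. C1qb, a subunit of complement C1q made by macrophages, had log2 fold changes of 0.99, 1.66 and -0.68.

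**Figure D2:**
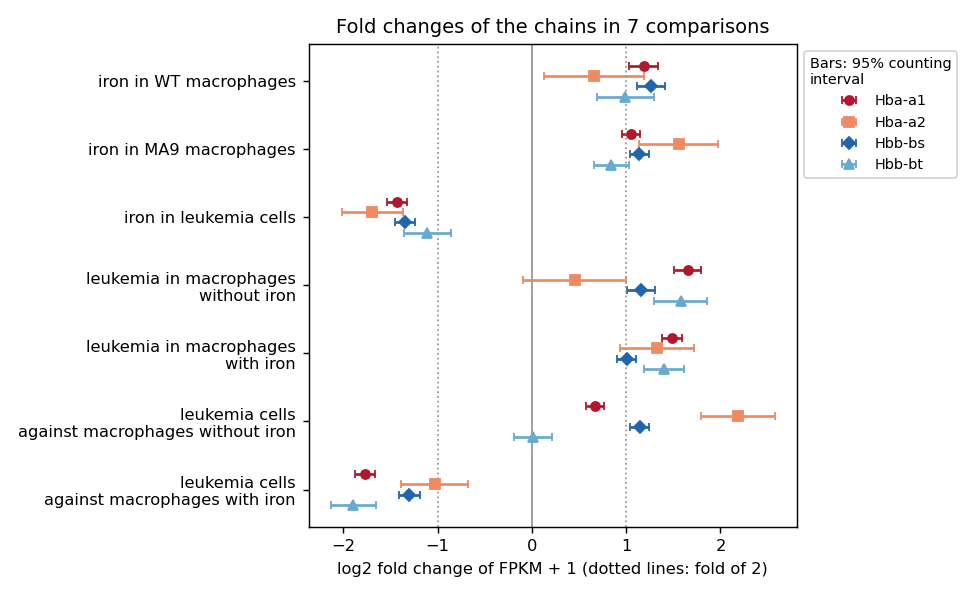
Log2 fold change of FPKM + 1 (x axis) of the 4 hemoglobin chains in the 7 comparisons (y axis), with 95% counting intervals as bars and dotted lines at a fold of 2. Iron in leukemia cells and leukemia cells against macrophages with iron are the comparisons in which all 4 chains lie to the left.

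Leukemia in the host went with more hemoglobin RNA in the macrophage libraries. The choice of genes did not use this contrast, but it used the same libraries. Without iron, Hba-a1 (1.65 ± 0.15), Hbb-bt (1.58 ± 0.28) and Hbb-bs (1.16 ± 0.15) passed, Hba-a2 (0.46 ± 0.55) did not, and 3.78% of 16910 genes passed upward. With iron, all 4 passed, at 1.49 ± 0.10 for Hba-a1, 1.40 ± 0.21 for Hbb-bt, 1.32 ± 0.39 for Hba-a2 and 1.01 ± 0.10 for Hbb-bs, and 2.93% of 16554 genes passed upward. Hbb-bs lay at the threshold and did not pass with FPKM as deposited (0.98), with median-of-ratios size factors (0.97) or with the trend on exon length removed (0.78). MA9/FE macrophages thus held the most hemoglobin RNA of the 4 macrophage libraries in each of the 4 chains.

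A limma fit over the 4 macrophage libraries, with iron and leukemia as additive terms, gave the only test. The leukemia term was 1.57 ± 0.17 (log2, SE) for Hba-a1, 1.49 ± 0.17 for Hbb-bt, 1.09 ± 0.17 for Hbb-bs and 0.90 ± 0.24 for Hba-a2. The limma p-values adjusted by Benjamini-Hochberg over 16253 genes were 0.0158, 0.0190, 0.0379 and 0.147 in that order, so 3 of 4 chains passed at 0.05, beside 2.23% of all genes. The residual has 1 degree of freedom and measures how far the iron shifts of WT and MA9 mice differ, not the spread between mice. The chains had been picked for shifts with iron in these same libraries, which can make that residual small. Their p-values are therefore a description. With the trend on exon length removed, the limma adjusted p-values of the chains were 0.0663 to 0.177 and 0 of 4 passed (4 at an unadjusted p under 0.05).

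Leukemia cells held more hemoglobin RNA than MA9 macrophages without iron and less with iron. Without iron, Hba-a2 (2.18 ± 0.39) and Hbb-bs (1.15 ± 0.10) passed upward, Hba-a1 was at 0.67 ± 0.09 and Hbb-bt at 0.01 ± 0.20, beside 7.31% of 17023 genes passing upward. With iron, all 4 chains were lower in leukemia cells, from -1.03 ± 0.35 for Hba-a2 to -1.90 ± 0.24 for Hbb-bt, beside 13.2% of 16821 genes passing downward. Hba-a2 did not pass with median-of-ratios size factors (-0.99) or with the trend on exon length removed (-0.91). By the labels, cell type and tissue cannot be told apart in these 2 comparisons, and each shares its libraries with an iron comparison above.

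The balance between chains differed between the libraries. The ratio of alpha to beta was 0.770 (95% counting interval 0.689 to 0.860) in WT and 0.734 (0.679 to 0.794) in WT/FE macrophages, and 0.947 (0.881 to 1.02) in MA9 and 0.963 (0.914 to 1.01) in MA9/FE macrophages. In leukemia cells it was 0.888 (0.844 to 0.934) without and 0.791 (0.727 to 0.860) with iron. The intervals of the libraries without and with iron overlapped in each macrophage pair and in leukemia cells, and those of WT and MA9 macrophages did not. Beta exceeded alpha per length in the value of every library, but in reads not divided by length the ratio was 1.02 in both MA9 and MA9/FE macrophages and under 1 in the other 4. A ratio within a library does not depend on the scaling between libraries.

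The copies of each class were also used in different proportions. Hbb-bs stood above Hbb-bt by 3.71 times without and 4.34 with iron in WT macrophages, 2.64 without and 3.23 with iron in MA9 macrophages, and by 5.83 and 5.09 times in leukemia cells without and with iron. The intervals of the leukemia cells (5.25 to 6.46 and 4.35 to 5.96) lay above those of MA9 (2.35 to 2.97) and MA9/FE macrophages (2.96 to 3.53). Hba-a1 stood above Hba-a2 by 8.83 times without and 11.8 with iron in WT macrophages, 19.2 without and 12.1 with iron in MA9 macrophages, but by 5.91 and 7.62 times in leukemia cells without and with iron. Leukemia cells thus held relatively more Hba-a2 and relatively less Hbb-bt than MA9 macrophages did. Against macrophages of mice without leukemia, intervals overlapped in part. For Hba-a1 to Hba-a2 they were 5.28 to 6.62 and 6.18 to 9.40 in leukemia cells without and with iron, and 6.57 to 11.9 in WT macrophages. The interval of WT/FE macrophages (9.26 to 14.9) overlapped that of leukemia cells with iron and lay above that without iron. For Hbb-bs to Hbb-bt, leukemia cells with iron overlapped WT (3.08 to 4.48) and WT/FE macrophages (3.78 to 4.98). Leukemia cells without iron lay above both. How the reads of near-identical copies had been divided bears on these ratios, and their part in the result was not tested.

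**Figure D3:**
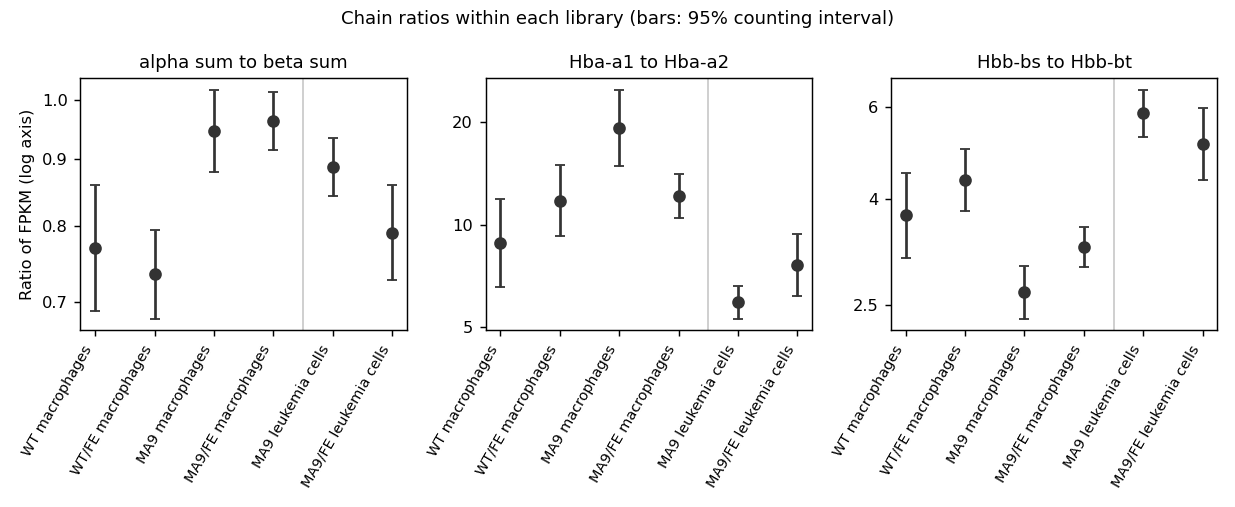
Ratios of FPKM within each library (y axis, logarithmic) for alpha to beta (left), Hba-a1 to Hba-a2 (middle) and Hbb-bs to Hbb-bt (right), with 95% counting intervals as bars. MA9 and MA9/FE macrophages have the highest alpha to beta ratios, and the leukemia cells have the lowest Hba-a1 to Hba-a2 and the highest Hbb-bs to Hbb-bt ratios.

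The other globin genes were silent or nearly so. The embryonic chains Hba-x and Hbb-y, the pseudogene Hbb-bh0, Hbq1a and the muscle oxygen store Mb (myoglobin) had 0 reads in all 6 libraries, which allows up to 3 reads per library. Hbb-bh1, a further embryonic beta-like gene, had at most 9 reads and Hbq1b, a theta-globin gene of the alpha cluster, at most 14, both in MA9 macrophages. Cygb (cytoglobin) was the other globin with over 100 reads, at 1.74 to 3.21 FPKM in macrophages and 0 in leukemia cells, and its log2 fold change with iron was -0.09 in WT and 0.06 in MA9 macrophages.

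Of the measured genes beside the clusters, 0 passed with iron apart from the chains. Over all genes, 0.429% to 1.26% passed in a direction, so that a count of 0 is near the background. Within 100 kb of the alpha genes, 10 other genes are annotated and 6 of them had at least 100 reads in a library. Nprl3, whose introns hold the known enhancers of the alpha cluster, was at 4.04 to 5.82 FPKM in all libraries, with log2 fold changes with iron of 0.26 in WT macrophages, -0.07 in MA9 macrophages and 0.03 in leukemia cells. Il9r, the receptor of interleukin 9, was at 18.8 to 25.6 FPKM in macrophages and at 0 in both leukemia cell libraries. Around the beta genes, 16 of 17 other genes had under 10 reads, among them all 10 olfactory receptor genes, and the remaining one, the pseudogene Dnajc19-ps, had at most 36. Its log2 fold changes with iron were -0.001 in WT macrophages, -0.91 in MA9 macrophages and -0.02 in leukemia cells.

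Heme synthesis supplies the group that the chains carry. Alas2, the first enzyme of that pathway in erythroid cells, was the member whose changes with iron had the directions of the chains in all 3 pairs. It was at 1.41, 3.10, 4.09 and 4.97 FPKM in macrophages from WT, WT/FE, MA9 then MA9/FE mice and at 4.84 and 1.84 FPKM in leukemia cells without and with iron, on 66 to 211 reads. Its log2 fold changes with iron were 0.76, 0.26 and -1.04 in WT macrophages, MA9 macrophages and leukemia cells, so that it passed in leukemia cells alone. The small change in MA9 macrophages rested on 167 reads without and 192 with iron. It is among the genes the study had listed from these samples. Of the other 12 heme synthesis genes, 0 passed with iron in any of the 3 comparisons, where 0.429% to 1.26% of all genes passed in a direction, so that a count of 0 is near the background. Alas1, the enzyme of the same step in other cells, was at 5.69 to 7.22 FPKM in macrophages and at 70.7 and 54.6 FPKM in leukemia cells without and with iron. Cpox, a later enzyme, went from 16.6 to 9.38 FPKM with iron in MA9 macrophages (log2 fold change -0.73), where the chains were higher.

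Genes that make and mark erythroblasts had list medians near or below 0 when iron was given. Of the membrane and skeleton genes, 0 of 18 measured passed upward in either macrophage pair, a count near the background of 0.729% of all genes in WT and 1.19% in MA9 macrophages. In WT macrophages 11 were above 0 and 7 below (median 0.06), and in MA9 macrophages 16 of 18 were below 0 (median -0.20). Ermap, an erythroblast surface protein, passed downward there (14.6 to 5.79 FPKM, log2 fold change -1.16), and Aqp1, the water channel of red cells, went from 42.0 to 22.3 FPKM (-0.85). Ank1 (-0.90), the anchor of the red cell skeleton, and Rhag (-0.73), a gas channel of the Rh complex, were lower too. The summed level of this list was 60.6 and 56.2 FPKM in WT and WT/FE macrophages, 166 and 118 FPKM in the macrophages of MA9 then MA9/FE mice, and 26.4 and 24.6 FPKM in leukemia cells without and with iron. Icam4 had 0 reads in all of them. Ermap and Slc38a5 were also on the study's own list from these samples.

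Among erythroid transcription factors, 10 of 12 were below 0 with iron in MA9 macrophages (median -0.41) and 9 of 12 in WT macrophages (median -0.07). Gata1, the regulator that opens the erythroid program, was at 2.21 and 1.22 FPKM in WT and WT/FE macrophages, 11.5 and 6.30 FPKM in the macrophages of MA9 then MA9/FE mice, and 0.384 and 0.207 FPKM in leukemia cells without and with iron. Klf1, the direct activator of the adult beta genes, was at 5.06 and 3.27 FPKM, then 24.9 and 15.0 FPKM, then 0.756 and 1.10 FPKM in the same libraries. Both were lower with iron in both macrophage pairs, where the chains were higher. In leukemia cells both were near 0, on 9 to 30 reads, while the chains were at 420.0 and 159.1 FPKM in sum. Tal1 (log2 fold change -1.04), the partner of GATA1, passed downward with iron in MA9 macrophages. Gfi1b, a transcriptional repressor active within the erythroid and megakaryocyte lines, was at -0.94 there.

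Of 14 receptors and late enzymes, 0 passed with iron in WT or MA9 macrophages, again near the background of 0.729% and 1.19% of all genes. They were below 0 in 13 of 14 in WT macrophages (median -0.09), in 9 of 14 in MA9 macrophages (median -0.08) and in 8 of the 12 measured in leukemia cells (median -0.15). Car1, an abundant carbonic anhydrase of red cells, was at 44.0 and 32.0 FPKM in WT and WT/FE macrophages, 174 and 108 FPKM in the macrophages of MA9 then MA9/FE mice, and 0.485 and 1.35 FPKM in leukemia cells without and with iron. Tfrc, the transferrin receptor, was lower with iron in all 3 pairs, at -0.17, -0.56 and -0.82. Trim10 (0.50, 0.14 and -0.33) took the directions of the chains. Slc4a1, the anion exchanger of red cells, chosen after its values were seen, was at 0.60, -0.16 and -0.67.

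**Figure D4:**
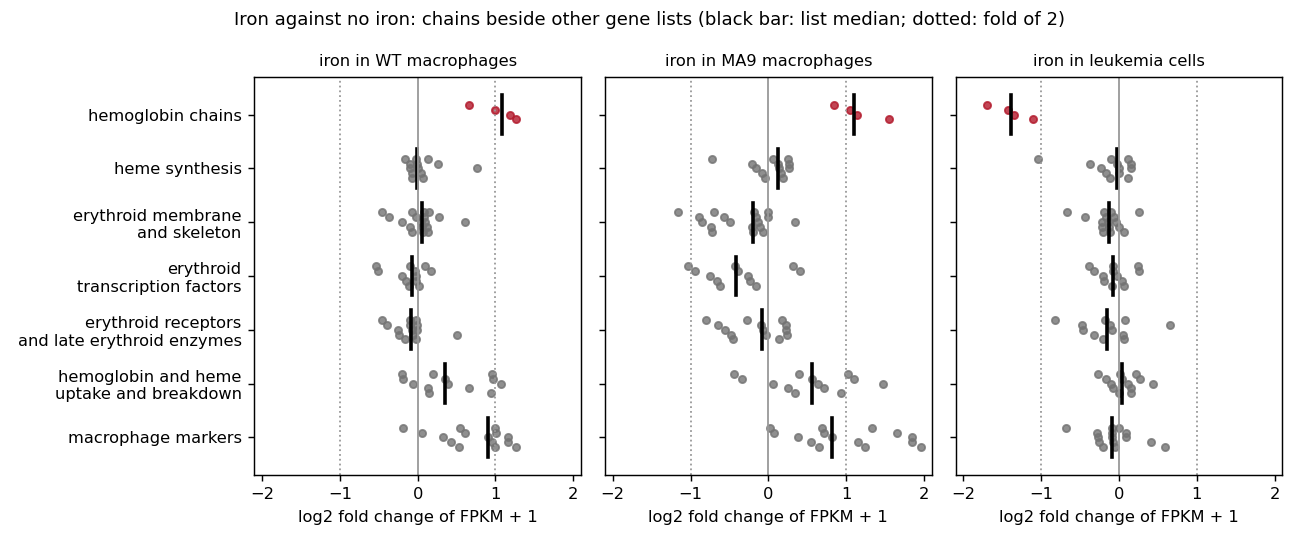
Log2 fold change of FPKM + 1 with iron (x axis) in WT macrophages, MA9 macrophages and leukemia cells, with a point for each measured gene of the hemoglobin chains and 6 gene lists (y axis), black bars at list medians and dotted lines at a fold of 2. The chains lie at 0.66 to 1.56 in the macrophage pairs and at -1.69 to -1.11 in leukemia cells, whereas the medians of the heme synthesis and erythroid lists lie between -0.41 and 0.12.

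The contrast between MA9 and WT macrophages was different, since there the erythroid lists were higher together with the chains. In the limma fit over the 4 macrophage libraries, 8 of 18 membrane and skeleton genes, 6 of 12 transcription factors, 6 of 14 receptors and late enzymes and 2 of 13 heme synthesis genes passed upward and 0 passed downward, beside 2.23% of all genes in either direction. The list medians were 1.07, 1.09, 0.71 and 0.54, against 0.00 over all genes. Klf1 (2.02, adjusted p = 0.00842 by limma), Gata1 (1.86, adjusted p = 0.00982) and Car1 (1.87, adjusted p = 0.00982) were among those that passed, and Alas2 (0.83, adjusted p = 0.111) did not pass. With the trend on exon length removed, 3, 1, 1 and 0 genes of these lists passed, Gata1 and Car1 no longer among them (limma adjusted p = 0.0526 and 0.0560), and 0 passed when genes of any read number entered the fit. With iron, where passing means a fold of at least 2 within a pair and no test, none of the measured genes of these 4 lists passed upward. That count is near the background of 0.729% of all genes in WT and 1.19% in MA9 macrophages. By the same fold criterion, 12 of 18, 7 of 12, 6 of 14 and 3 of 13 genes of these lists passed upward in MA9 against WT macrophages. In MA9/FE against WT/FE macrophages the counts were 8, 6, 5 and 2. Over all genes, 3.78% and 2.93% passed upward in these 2 comparisons. The difference between both patterns was not tested, and the limma and fold criteria are unlike.

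Genes for taking up and breaking down hemoglobin are the macrophage's side of the same metabolism. With iron, 1 of 13 measured passed upward in WT macrophages, 3 of 13 in MA9 macrophages and 0 of 13 in leukemia cells, beside 0.729%, 1.19% and 0.435% of all genes, with medians of 0.35, 0.57 and 0.04. Slc40a1, the iron exporter ferroportin, was at 18.8 and 40.8 FPKM in WT and WT/FE macrophages, 17.6 and 49.4 FPKM in the macrophages of MA9 then MA9/FE mice, and 3.95 and 3.93 FPKM in leukemia cells without and with iron. Spic, the factor of red pulp macrophages that heme induces, had log2 fold changes of 0.66 and 1.10 in WT and MA9 macrophages, and Ftl1, the ferritin light chain, 0.20 and 1.02. Lrp1, the receptor of heme bound to hemopexin, was at 0.96 in WT and 0.06 in MA9 macrophages.

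Macrophage markers moved with the chains in the macrophage pairs. With iron, 4 of 15 passed upward in WT macrophages and 7 of 15 in MA9 macrophages, beside 0.729% and 1.19% of all genes, with medians of 0.90 and 0.82, and their summed level was 673 and 1106 FPKM in WT and WT/FE and 781 and 1502 FPKM in MA9 and MA9/FE macrophages. In leukemia cells, where the chains were lower with iron, 0 of 15 passed, near the background of 0.435% of all genes upward and 0.429% downward. Of the 15 markers, 10 were below 0 there (median -0.09), C1qb the lowest at -0.68. Their sum there was 1256 and 1591 FPKM, of which Lyz2 (lysozyme), named after its values were seen, made up 1017 and 1348 FPKM. None of the 15 was at 0 in any library. Their part in the result was not tested.

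Other cell types were uneven between the libraries. Summed B cell markers (10 genes, none at 0) were at 2463 and 2302 FPKM in WT and WT/FE, 1340 and 2403 FPKM in MA9 and MA9/FE macrophages, and 21.9 to 22.6 FPKM in leukemia cells. Plasma cell markers (7 genes, none at 0) were at 1057 to 1080 FPKM in the macrophages of mice without leukemia, 2159 to 2637 FPKM in those of mice with leukemia and 77.8 to 79.7 FPKM in leukemia cells. Neutrophil markers (10 genes) were at 4.38 to 6.18 FPKM in macrophages of mice without leukemia, where 2 of the 10 were at 0 in each library, at 1890 and 956 FPKM in the macrophages of MA9 then MA9/FE mice, and at 5284 and 4153 FPKM in leukemia cells without and with iron. Between MA9 and WT macrophages the chains, the plasma cell markers and the neutrophil markers were thus higher together, while with iron the neutrophil markers were lower in MA9 macrophages, where the chains were higher. T and NK cell markers (9 genes, Ncr1 at 0 in both leukemia cell libraries) summed to 102 to 138 FPKM in macrophages and 49.6 to 52.3 FPKM in leukemia cells. Megakaryocyte and platelet markers (9 genes, Gp1bb at 0 in all libraries) summed to 8.14 to 21.4 FPKM in macrophages and 3.87 to 3.93 FPKM in leukemia cells. MLL-AF9 leukemia markers (9 genes, Hoxa10 at 0 in WT and WT/FE macrophages) summed to 71.7 to 94.3 FPKM in macrophages and 239.6 to 259 FPKM in leukemia cells. The part of these cell types in the hemoglobin values was not tested.

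Among themselves the chains followed each other across the 6 libraries to different degrees. Pearson's r of log2(FPKM + 1) was 0.97 between Hba-a1 and Hbb-bs and between Hba-a1 and Hbb-bt, 0.84 between both alpha genes, 0.88 between both beta genes and 0.68 between Hba-a2 and Hbb-bt. Outside the chains, 4775 genes with at least 100 reads in a library and a range of at least 1 on the log2 scale were compared with the mean of the 4 chains. Alas2 was the most like it (r = 0.92), followed by Sarnp (0.92), an RNA-binding protein of mRNA export, and Gm8494 (0.88), a processed pseudogene. Ptgs1 (0.84), the cyclooxygenase of platelets and macrophages, Rps27a (0.83), a ribosomal protein made as a fusion with ubiquitin, Tspan4 (0.83), Ctsd (0.81), a lysosomal protease, Cebpb (0.81), a myeloid transcription factor, Gm36161 (0.81) and C4b (0.80), a complement component, completed the first 10. Rps27a was at 138 and 108 FPKM in WT and WT/FE macrophages, 262 and 421 FPKM in the macrophages of MA9 then MA9/FE mice, and 332 and 139 FPKM in leukemia cells without and with iron, so it was lower with iron in WT macrophages, where the chains were higher. These likenesses rest on 6 libraries that differ in cell type, tissue and treatment at once and are a description.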

How the data were processed

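The authors deposited FPKM per Ensembl gene, 1 file per library. The submitters' processing notes name Bowtie2 2.2.5, RSEM and the build mm10, and pooling is not given in the sources used here. FPKM times GENCODE M21 exon length, divided by the value of 1 read, gave whole reads and depth. Members and gene lists were chosen with earlier results of these data known. FPKM were scaled by TMM (computed in Python 3.11.15) within each pair, with a pseudocount of 1 and at least 10 reads, and a fold of at least 2 was counted without a test. limma 3.58.1 was fitted over the 4 macrophage libraries, for genes reaching 10 reads in 2 or more of them. The steps were tested on simulated data. Named from each pathway list were up to 4 genes with at least 100 reads and the largest change with iron, and the 10 genes most like the chains in pattern, and exceptions are marked in the text. Alternatives were other scalings, pseudocounts, minimum reads and denominators, and, added after the data were seen, removal of an exon-length trend and no pseudocount. Ahsp was not analysed, and sequences came from GENCODE M21 and RefSeq.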

Additional observations from a re-analysis of the deposited data

Results flagged for a closer look

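The 4 chains moved one way with iron in both macrophage pairs and the other way in leukemia cells. The log2 fold change with iron in leukemia cells lay below the mean of the 2 macrophage pairs by a difference of -2.55 for Hba-a1, -2.80 for Hba-a2, -2.55 for Hbb-bs and -2.02 for Hbb-bt. The difference was not tested, since each condition has 1 library, and the genes were picked for it.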

How the results depend on the processing

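No paired analysis was possible because each condition has 1 library. For the same reason no library could be left out of a pair or of the limma fit. With the exon-length trend removed, 1 chain in place of 3 passed for iron in MA9 macrophages. In place of 4, 3 passed for leukemia with iron (FPKM as deposited, median-of-ratios factors, length trend removed) and for leukemia cells against macrophages with iron (the last 2 of these), and 3 in place of 2 for iron in WT macrophages (pseudocount 0.1, no pseudocount, length trend removed). Of 18 ratios, 4 moved past their interval in reads not divided by length. The chains passing the limma fit (3) were 1 at the pseudocount 0.1, 0 when genes of any read number entered (3 at an unadjusted p under 0.05, of 27356 genes) and 0 with the length trend removed (4 unadjusted), and all genes passing (363) were 215, 0 (2879 unadjusted) and 34. None of 224 alternative fold changes of the chains changed sign. Without immunoglobulin genes in the denominator, the hemoglobin share was 0.0184% in macrophages of MA9 mice, 0.0387% in those of MA9/FE mice, and the other 10 alternative shares stayed within their intervals.

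All genes with a fold of at least 2 numbered 213, 405 and 133 for iron in WT macrophages, MA9 macrophages and leukemia cells, 794 and 755 for leukemia without and with iron, and 3398 and 3824 for leukemia cells against macrophages without and with iron. With a pseudocount of 0.1 they were 783, 1497, 629, 1977, 2080, 5798 and 6487. For the iron comparisons they were 481, 730 and 375 when genes of any read number entered and 116, 234 and 60 with a minimum of 50. Removing the length trend turned 197 higher and 208 lower genes for iron in MA9 macrophages into 129 and 297, and 485 and 270 for leukemia with iron into 331 and 401. The cause of the trend was not tested. Hba-a2, on 48 to 346 reads, is the chain that depth limits most.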
